A study of Homo sapiens with 8 samples.

Results

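PTMA is the human gene for prothymosin alpha, and MIR1244-1, MIR1244-2 and MIR1244-3 are rows named for copies of the microRNA gene MIR1244, whose sequence lies in the PTMA mRNA and in PTMA pseudogenes. These 4 rows and PTMS, the gene for the related protein parathymosin, were followed in 8 poly(A) RNA libraries, 5 of the 23621 rows that are not spike-ins. They were chosen by name and by their measured level, since the MIR1244 rows were known to hold about 40% of all signal, so their rank and share are given as a description without a test. The cells were NALM6, an established line from a human leukemia of B-cell precursors.

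The 4 groups had 2 libraries each, called A and B. SE cells with doxycycline (SE DOX) carried an inducible HMGN1 whose S20,24E exchange of serines removes nucleosome binding, and received doxycycline at 100 ng/ml for 6 hours. SE cells with vehicle (SE vehicle) carried the same construct without doxycycline. WT cells with doxycycline (WT DOX) carried inducible wild-type HMGN1 and received the same dose, and WT cells with vehicle (WT vehicle) did not. Nothing in the labels says that the line's own HMGN1 gene was altered in any group. RNA came from equal cell numbers, and ERCC spike-ins, synthetic RNAs of known amount, were added per sample. The labels call A and B biological replicates; the sources used here do not say how the cultures were separated, so p-values measure only the spread between these libraries.

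Levels are FPKM, which count sequenced fragments relative to a transcript's length and to all mapped fragments of the library, in an unnormalized and a spike-in-normalized table. The files hold no read counts, so each library's depth is unknown and values carry no counting intervals. The spike-in sum ran from 5675 to 10042 in the unnormalized table, highest in SE DOX A. All 10 B-lineage markers listed had a mean of at least 1, with a summed level of 1913 to 2311. T-cell markers (0 of 5 with a mean of at least 1, sum 0 to 0.0701), erythroid markers (0 of 5, sum 0 to 0.0938) and myeloid markers (1 of 5, LYZ, sum 1.55 to 4.90) stayed low. The HMGN1 row averaged 1241 ± 254 FPKM in SE DOX and 1246 ± 255 in SE vehicle, and 794 ± 1.72 in WT DOX and 803 ± 9.35 in WT vehicle (unnormalized, SD, n = 2 each). It was thus not higher in the libraries labelled DOX, and the sources used here do not say whether it counts construct transcripts, so it does not verify the treatment labels.

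Prothymosin alpha is a small, very acidic and unstructured nuclear protein that is abundant in dividing cells. It binds linker histone H1, binds KEAP1, the inhibitor of the transcription factor NRF2, and restrains assembly of the apoptosome, the complex through which cytochrome c activates caspases. Its gene is a known target of MYC. Parathymosin is a similarly acidic nuclear protein that also binds histone H1. A microRNA is cut from a hairpin in a longer transcript, and its bases 2 to 8, the seed, pair with target mRNAs. PTMA has many processed pseudogenes, which are copies of its mRNA pasted elsewhere in the genome, so stretches of the mRNA recur at other places.

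The sequences show why the MIR1244 rows and PTMA must be read together. The mature miR-1244 of 3 copies and the matching stretch of the PTMA mRNA are printed 5′ to 3′, from RefSeq (GRCh38.p14) and from GENCODE release 29, with the seed in capitals. The tables were made on hg19, so the positions belong to another build than the files. The first line lies at chr2:231713368-231713393, the second at chr5:118974640-118974665 and the third at chr12:12112006-12112031, all on the plus strand. The last line is bases 1044 to 1069 of the transcript PTMA-201.
MIR1244-1: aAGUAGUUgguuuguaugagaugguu
MIR1244-2: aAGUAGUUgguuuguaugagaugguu
MIR1244-4: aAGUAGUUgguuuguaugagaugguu
PTMA-201: aAGTAGTTggtttgtatgagatggtt
The 3 mature sequences were identical and share 1 seed, and the mRNA stretch differs from them only in having T for U. MIR1244-4 has no row in the tables analysed here.

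The whole precursor is repeated as well. In RefSeq the 4 MIR1244 hairpins are 85 bases long each and have 1 distinct sequence among them. MIR1244-1 lies inside PTMA, at chr2:231713314-231713398 on the plus strand. MIR1244-2 lies at chr5:118974586-118974670 on the plus strand, inside the pseudogene PTMAP2 and within the span of DTWD2. MIR1244-3 lies at chr12:9239467-9239551 on the minus strand, inside PTMAP4 and A2MP1. MIR1244-4 lies at chr12:12111952-12112036 on the plus strand, inside PTMAP9.

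The hairpin is part of the 3′ untranslated region of PTMA. Of the 12 PTMA transcripts in GENCODE release 29, 4 contain all 85 bases, in the last exon of each. In PTMA-201, of 1212 bases, the annotated coding sequence ends at base 524 and the hairpin covers bases 990 to 1074. In PTMA-202, of 1221 bases, coding ends at base 528 and the hairpin covers bases 994 to 1078. No other gene in that annotation, microRNA genes aside, has a transcript with the whole hairpin. A fragment that lies wholly inside these 85 bases therefore has the same letters for PTMA, MIR1244-1, MIR1244-2 and MIR1244-3. The files hold neither counts nor the rule by which such fragments were divided, so transcripts of the separate loci cannot be told apart in these rows. The tables list 0 rows starting with PTMAP.

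The 3 MIR1244 rows did not share a level although their hairpins are identical. MIR1244-1, the copy inside PTMA, was listed at exactly 0.01 FPKM in all 8 libraries of the unnormalized table. The smallest value above 0 in that table is 0.01, it occurs 6283 times, and 47 rows stand at it in every library. In the normalized table MIR1244-1 stood between 0.103 and 0.116 FPKM. In that table PTMS, listed at 0 before normalization, stood at 0.0943 in SE DOX A and 0.105 in WT vehicle B. The normalized values of MIR1244-1 lie near these and are not read as a level or a difference. A row at one value throughout the unnormalized table shows no difference between libraries.

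MIR1244-2 was listed at 184665 and 203697 FPKM in SE DOX (A and B), 177855 and 204426 in SE vehicle, 210722 and 278091 in WT DOX, and 213889 and 280005 in WT vehicle. MIR1244-3 was listed at 185232 and 203885 FPKM in SE DOX, 177855 and 204426 in SE vehicle, 211031 and 278687 in WT DOX, and 214697 and 281073 in WT vehicle. The rows moved as one: both read alike to the digits given in SE vehicle, and elsewhere MIR1244-3 was higher by at most 0.381%. All 4 SE libraries were below all 4 WT libraries in both rows, as they were in 11.5% of the 11340 rows with a mean of at least 1, and library B was above library A in each group.

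PTMA was listed at 3251 and 4099 FPKM in SE DOX (A and B), 3251 and 4076 in SE vehicle, 3838 and 4485 in WT DOX, and 3819 and 4518 in WT vehicle. Library B was above library A in every group, while the DOX and vehicle libraries of a letter nearly coincided. The SE and WT libraries overlapped, since both SE B libraries exceeded both WT A libraries. On the spike-in scale PTMA stood at 2303 and 3740 FPKM in SE DOX, 2991 and 4003 in SE vehicle, 4706 and 4721 in WT DOX, and 4817 and 4754 in WT vehicle. On that scale no SE library reached a WT library, as in 65.2% of the 11465 rows with a mean of at least 1, and the WT libraries lay close together.

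PTMS, by contrast, was listed at or near 0. It stood at 0 in both SE DOX libraries and at 0.0194 (A) and 0.0381 (B) FPKM in SE vehicle. It stood at 0 (A) and 0.0218 (B) in WT DOX and at 0.0178 (A) and 0 (B) in WT vehicle. A listed 0 in such a table can be a failed estimate as well as a low level, so no fold is given.

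**Figure D1:**
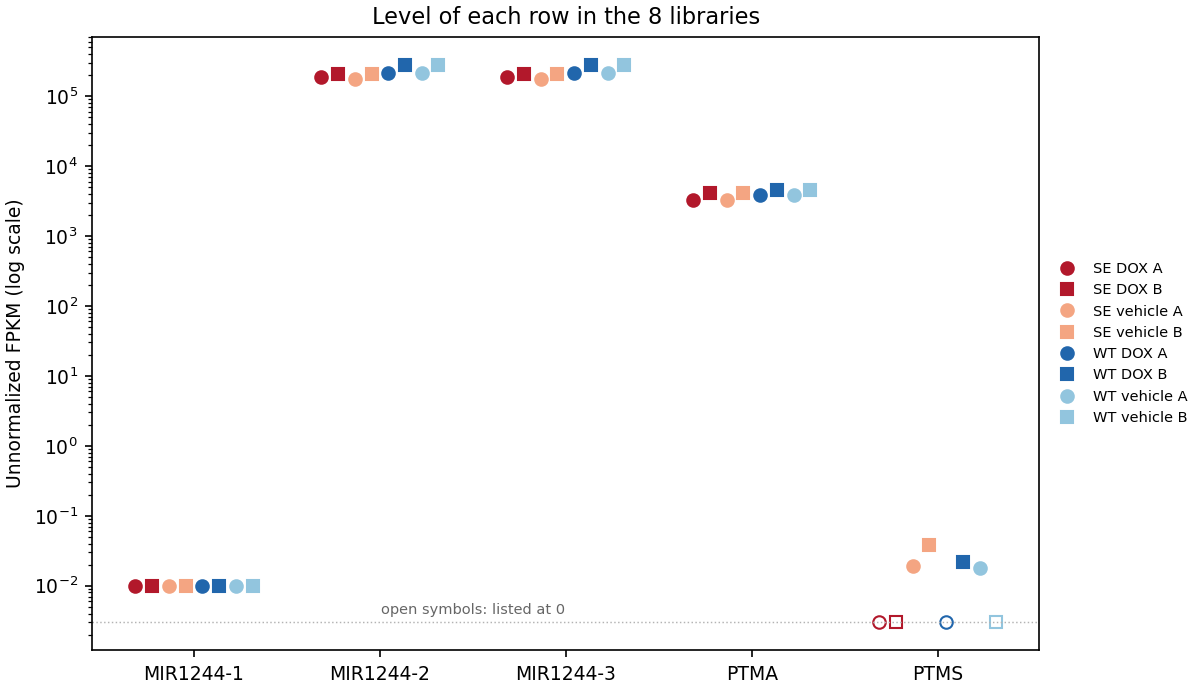
Level of each row in each library, unnormalized FPKM on a log axis, with a symbol per library (circles A, squares B, open symbols listed at 0). MIR1244-2 and MIR1244-3 show the same pattern at 177855 FPKM and above, PTMA lies between 3251 and 4518, and MIR1244-1 and PTMS lie at the foot of the table.

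The level of MIR1244-2 and MIR1244-3 placed them above every other row. By mean over the 8 libraries MIR1244-3 was first at 219611 ± 39222 FPKM and MIR1244-2 second at 219169 ± 38962 (SD, n = 8). The next row was SNORD76, a small nucleolar RNA that guides methylation of ribosomal RNA, at 10263 ± 1487, so MIR1244-3 was 21.4-fold above it. SNORD100 and SNORD87, also small nucleolar RNAs, followed at 7866 and 6737, and then RPL41 and RPS18, ribosomal protein genes, at 4960 and 4885. PTMA ranked 10 at 3917 ± 485 (SD, n = 8). MIR1244-1 and PTMS ranked 16024 and 15744.

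Among mRNAs, PTMA was one of the highest. It stood above all 10 genes of a list of other abundant mRNAs. Its mean was 1.07 times that of TPT1, the translationally controlled tumour protein, at 3671 FPKM. It was 1.15 times that of EEF1A1, a translation elongation factor, at 3394, and 1.25 times that of TMSB4X, the actin-binding thymosin beta 4, at 3140. FTH1, the ferritin heavy chain, was lowest of the list at 193, so the list spanned a wide range of levels per length. In the 5 comparisons described further on, 0 of these 10 genes were called by limma, and 7 had an unadjusted p under 0.05 in WT over SE under DOX, 1 under vehicle and 0 in the others. Over all rows tested that share was 60.4% under DOX and 7.12% under vehicle, so these counts were near the background.

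The MIR1244 rows together made up 39.6% (A) and 40.1% (B) of the summed unnormalized FPKM in SE DOX and 38.2% and 40.9% in SE vehicle. They made up 39.8% and 47.2% in WT DOX and 40.3% and 47.3% in WT vehicle, and the mean was 41.7% ± 3.52 (SD, n = 8). Only the WT B libraries stood clearly above the rest. All other rows with small RNA names together held 4.58% to 6.61%. PTMA held 0.348% to 0.408% of the sum, and 0.564% to 0.722% once the MIR1244 rows were taken out of it.

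A share of FPKM is not a share of reads, because FPKM divides by length. To put rows on a scale nearer to fragments, each value was multiplied by a row length from the annotation, which was found for 94.2% of the rows. The MIR1244 rows then held 2.16% to 3.18% of the sum (mean 2.53%), and PTMA held 0.284% to 0.368%. After multiplying by length the MIR1244 share was a few percent, yet still 7.77 times the PTMA value on average, with a range of 6.92 to 8.64. For scale, the 85 bases of the hairpin make up 6.96% of the 1221 bases of PTMA-202. Fragments spread evenly over that mRNA would give the hairpin about that share of the PTMA total. With 85 bases taken as the length of each MIR1244 row, these rows summed to 692% to 864% of the PTMA value. That sum counts both MIR1244-2 and MIR1244-3, which hold the same 85 bases at near-equal values, so either row alone stood lower. The sources used here do not give the length by which Cufflinks divided each row. These values therefore hold only for the lengths taken here, and the part of the length in them was not tested.

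**Figure D2:**
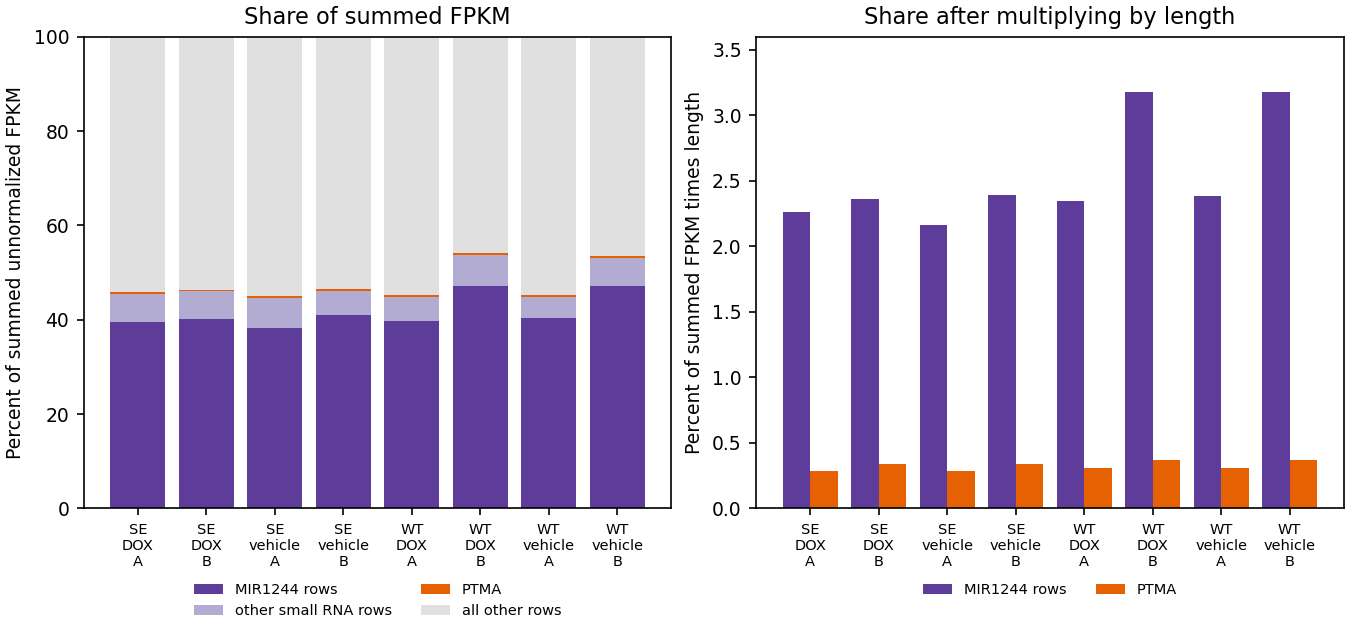
Share of each library's sum, in percent, as stacked bars of FPKM for the MIR1244 rows, other small RNA rows, PTMA and all other rows (left), and as bars for the MIR1244 rows and PTMA after multiplying by length (right). The MIR1244 share is 38.2% to 47.3% of FPKM and 2.16% to 3.18% after multiplying by length.

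Other microRNA rows show how rows of this kind read in the same table. The table has 1286 rows named MIR and a digit, of which 1167 were at 0.01 or below in all 8 libraries and 112 had a mean of at least 1. The highest mean outside MIR1244 was 2945 FPKM, of MIR5047. In 101 rows the whole RefSeq hairpin is found in an annotated transcript of a gene that has a row itself. In 97 of them the microRNA lies in that gene, as MIR1244-1 does in PTMA, and 82 of the 97 (84.5%) were at 0.01 or below in all 8 libraries. With the host gene at a mean of at least 10 FPKM this held for 50 of 57 rows (87.7%). MIR1244-1 was thus listed like most microRNAs inside an expressed host, although PTMA was far above the minimum. Exactly 0.01 in every library was rarer, with 3 rows: MIR1244-1, MIR3614 in the ubiquitin ligase gene TRIM25, and MIR3652 in the chaperone gene HSP90B1.

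In the other 4 rows the microRNA lies at another place than the gene whose transcript holds its hairpin. These were MIR1244-2 and MIR1244-3 with PTMA, MIR3654 with the elongation factor gene EEF1G, and MIR4315-2 with PLEKHM1, and the last pair of rows was listed at 0. The MIR1244 rows were therefore the only ones of these 4 with a level. Of the 97 rows that lie in their gene, only MIR1248, MIR637 and MIR658 exceeded 0.01 in all 8 libraries, and the highest mean was 362 FPKM, of MIR4517.

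Sets of rows with identical hairpins were not always listed alike. There were 8 such sets, and 3 of them had a row with a mean of at least 1. MIR1184-1 and MIR1184-2 read 46.9 and 47.9 FPKM, close to each other as MIR1244-2 and MIR1244-3 were. MIR941-3 and MIR941-4 read 21.2 and 5.86, which are further apart. In the MIR1244 set, 1 row stood at the smallest listed value and the others at the top of the table.

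**Figure D3:**
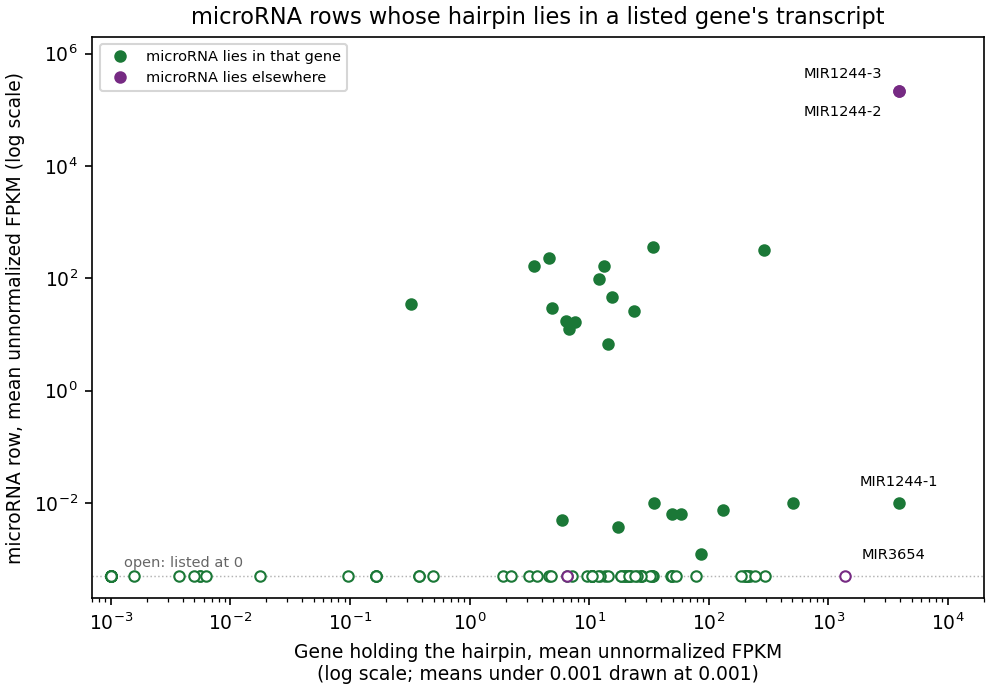
Mean unnormalized FPKM of each microRNA row (vertical, log axis) against that of the gene whose transcript contains its hairpin (horizontal, log axis), with rows inside that gene in green, rows elsewhere in purple, and open symbols for rows listed at 0. MIR1244-2 and MIR1244-3 stand alone at the top, and 82 of the 97 rows inside their gene lie at 0.01 or below in every library.

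The ratio of the summed MIR1244 rows to PTMA was 113.8 (A) and 99.4 (B) in SE DOX, 109.4 and 100.3 in SE vehicle, 109.9 and 124.2 in WT DOX, and 112.2 and 124.2 in WT vehicle. It averaged 105.7 ± 7.01 in SE and 117.6 ± 7.63 in WT (SD, n = 4 each), and the ranges overlapped. Coded as WT minus SE, so that a positive value means higher in WT, the log2 difference was 0.15, a 1.11-fold higher ratio in WT. An exact two-sided permutation test gave p = 0.114, and the smallest p it can give with 4 libraries against 4 is 0.0286. The difference therefore did not pass the test. The test counts 8 separate libraries, whereas the DOX and vehicle libraries of a letter had nearly the same ratio. Counted as 2 cultures per construct, no p below 0.333 can be reached, so the p of 0.114 is too small if a letter marks a shared culture.

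Within the letters the ratio went separate ways. Between the A libraries WT minus SE was -0.0070 on the log2 scale, and between the B libraries it was 0.31, so the pooled difference rests on the B libraries. Library B was below library A in SE and above it in WT, under DOX as under vehicle. PTMA was 26.1% higher in B than in A in SE DOX, 25.4% in SE vehicle, 16.8% in WT DOX and 18.3% in WT vehicle. MIR1244-2 was 10.3% higher in B in SE DOX, 14.9% in SE vehicle, 32.0% in WT DOX and 30.9% in WT vehicle. A letter has 1 library per group, so these differences have no replicate of their own.

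**Figure D4:**
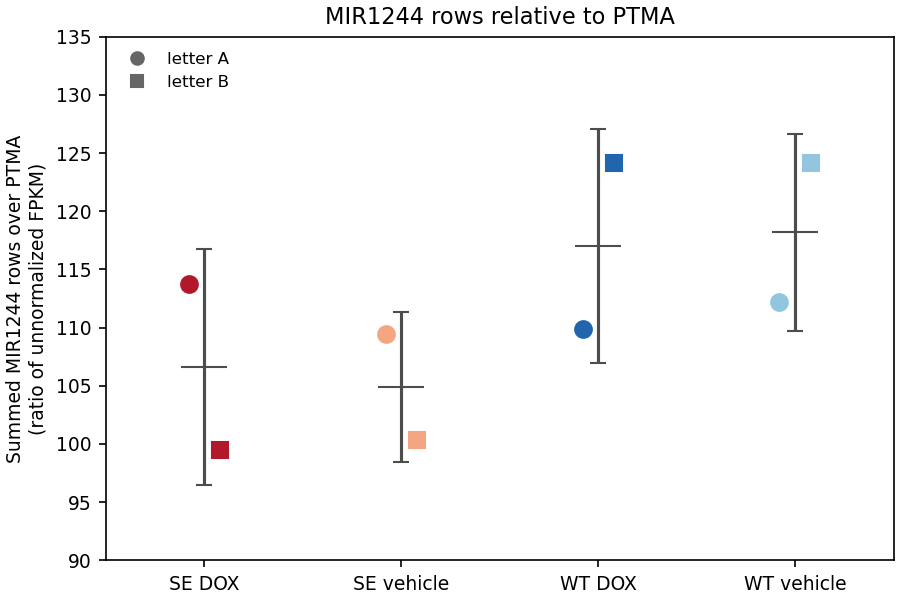
Ratio of the summed MIR1244 rows to PTMA in each library, unnormalized FPKM over unnormalized FPKM, by group, with circles for A, squares for B, and bars for the group mean ± SD (n = 2); the axis does not start at 0. The SE B libraries (99.4 and 100.3) are lowest and the WT B libraries (124.2 each) are highest, with all A libraries between 109.4 and 113.8.

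The profiles of PTMA and of the MIR1244 rows over the 8 libraries lay closer to each other than the median row did, but were not nearest. Likeness was the root mean square difference, over the 8 libraries, between the log2 values of a row centred on its own mean and those of another row, over 11337 rows. MIR1244-2 lay 0.0021 from MIR1244-3, and no other row was nearer. PTMA lay 0.11 from MIR1244-3, and 39 rows were nearer, led by TRIM47, LAT2 and STK39 at 0.050, 0.053 and 0.063. The median row lay 0.24 away, and a flat line, with no change between libraries, lay 0.23 away. Seen from PTMA, 926 rows were nearer than MIR1244-2, led by FAM53B, NCKIPSD and OLA1 at 0.027 to 0.030, against a median of 0.19. A flat line lay 0.17 from PTMA. The 8 points share letters and constructs, so these distances describe the libraries and carry no p.

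No difference between DOX and vehicle in these rows passed a test. In the 4 pairs of DOX and vehicle libraries with the same letter, unnormalized PTMA differed by -0.0046% in SE A, 0.57% in SE B, 0.49% in WT A and -0.75% in WT B. The differences had no common sign. On the spike-in scale PTMA differed by -0.38 in SE A, -0.10 in SE B, -0.03 in WT A and -0.01 in WT B (log2, DOX minus vehicle). The median of all tested rows was -0.35, -0.13, -0.02 and -0.05 in the same pairs, so PTMA was near the median row in each pair. The unnormalized spike-in sum was 10042 in SE DOX A and 7761 in SE vehicle A, and the part of the spike-in or RNA amount in these shifts was not tested. In bulk samples fewer cells of a kind and less RNA per cell cannot be told apart.

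Tests across all rows used limma with Benjamini-Hochberg adjustment on log2(spike-in-normalized FPKM + 0.1), over 11465 rows with a mean of at least 1. Of the 5 rows, 3 passed that minimum: PTMA, MIR1244-2 and MIR1244-3. A row was called at an adjusted p under 0.05. For SE DOX against SE vehicle, PTMA averaged 3021 ± 1016 FPKM in SE DOX and 3497 ± 716 in SE vehicle (SD, n = 2 each). MIR1244-2 averaged 158958 ± 37773 FPKM in SE DOX and 183044 ± 23273 in SE vehicle. The SD in SE DOX, which includes the difference between the letters, exceeded the difference of the means in both rows. In this fit, which does not pair the letters, PTMA (log2 fold change -0.24, 95% interval -0.87 to 0.40) was not called by limma (adjusted p = 0.538). MIR1244-2 and MIR1244-3 (-0.22 each) were not called either (adjusted p = 0.537 each). In that comparison 0 of the 3 rows were called, against 0.0523% of all rows tested (6 rows), and the median row had -0.24. On the unnormalized table the 3 values turned to 0.025 for MIR1244-2, 0.027 for MIR1244-3 and 0.0041 for PTMA, so the direction rests on the spike-in scaling. No one of the 3 rows had an unadjusted p under 0.05 in either doxycycline comparison or in their difference.

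For WT DOX against WT vehicle, PTMA averaged 4713 ± 10.5 FPKM in WT DOX and 4785 ± 44.4 in WT vehicle (SD, n = 2 each). MIR1244-2 averaged 275537 ± 24685 in WT DOX and 279081 ± 14268 in WT vehicle. All 3 rows had a log2 fold change of -0.02 and an adjusted p of 1.00 by limma, and the interval of PTMA ran from -0.66 to 0.62. Again 0 of the 3 were called, against 0.0698% of all rows (8 rows), with a median of -0.03. As a fold this interval, from a fit that does not pair the letters, runs from 0.633 to 1.53.

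The difference between the doxycycline effects, WT less SE, was 0.20 for MIR1244-2, 0.19 for MIR1244-3 and 0.22 for PTMA on the log2 scale, with an adjusted p of 0.83 by limma for each. None was called, against 0.0785% of all rows (9 rows), whose median was 0.21. The rows thus lay at the median of the table in this difference too.

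Between the constructs the fold changes of the MIR1244 rows and of PTMA were above the median row, and none passed the adjusted threshold. Under DOX, the comparison of WT with SE (fold changes are WT over SE, so positive means higher in WT) gave log2 fold changes of 0.81 for MIR1244-2 and MIR1244-3. That is a 1.75-fold level in WT, with an adjusted p of 0.0765 by limma and an unadjusted p of 0.0021, in a comparison where 60.4% of all rows had an unadjusted p under 0.05. PTMA had 0.68, 1.61-fold, with an adjusted p of 0.077. Under DOX 0 of the 3 were called, against 0.105% of all rows (12 rows), and the median of all rows was 0.53. These sizes rest on the spike-in scaling: on the unnormalized table they were 0.32 for MIR1244-2 and MIR1244-3 (adjusted p = 0.803 by limma for each) and 0.18 for PTMA (0.762), and with equal library medians 0.30 and 0.17. With a library left out PTMA ran from 0.33 (without SE DOX A) to 1.03 (without SE DOX B), and MIR1244-2 from 0.57 to 1.06. PTMA was called only without SE DOX B (adjusted p = 0.0259 by limma), a setting in which 72.3% of all rows were called.

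Under vehicle the same comparison gave 0.61 for MIR1244-2 (95% interval 0.18 to 1.05), 0.62 for MIR1244-3 and 0.47 for PTMA (-0.17 to 1.10). The adjusted p was 0.339 by limma for each, and 0 of the 3 were called, against 0.183% of all rows (21 rows). The median of all rows was 0.32. On the unnormalized table MIR1244-2 had 0.36 (-0.66 to 1.38) and PTMA 0.19 (-0.28 to 0.66), and with equal library medians 0.31 (-0.74 to 1.37) and 0.17 (-0.29 to 0.62). With only the vehicle groups fitted, the interval of MIR1244-2 was -1.61 to 2.84, so the interval above 0 does not hold in these fits. With a library left out PTMA ran from 0.26 to 0.68. With 2 libraries against 2 a permutation of the libraries could not go below p = 0.333, so no single-row permutation test is given for these comparisons.

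**Figure D5:**
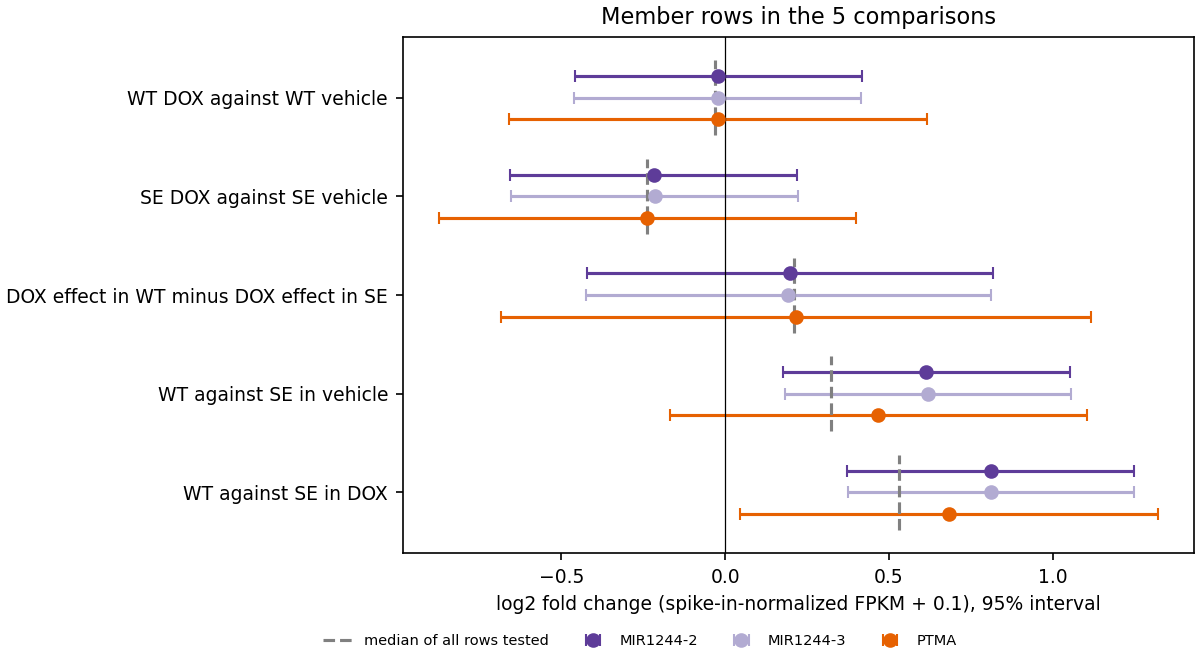
Log2 fold change of PTMA, MIR1244-2 and MIR1244-3 in each comparison, spike-in-normalized FPKM, as points with 95% intervals from limma, and the median of all 11465 rows as dashed lines. No row passed the adjusted threshold, and PTMA lies at -0.24 where the median row lies at -0.24 (SE DOX against SE vehicle) and at 0.68 where the median row lies at 0.53 (WT over SE under DOX).

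Most rows of the spike-in-normalized table were higher in WT, which sets the scale for these differences. All 4 WT libraries lay above all 4 SE libraries in PTMA, MIR1244-2 and MIR1244-3 there, and so did 65.2% of all rows tested. In the unnormalized table MIR1244-2 and MIR1244-3 kept that separation, at 192661 ± 13458 FPKM in SE and 245677 ± 38563 in WT for MIR1244-2 (SD, n = 4 each). PTMA did not, at 3669 ± 483 in SE and 4165 ± 389 in WT. That separation is the one 11.5% of rows showed. Construct and cell line cannot be told apart, since the labels give each construct in its own cells.

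Genes known to work with prothymosin alpha had median fold changes near those of the whole table. The list held 22 partners and regulators, and 20 of them were tested. By limma, 0 were called higher and 0 lower in each of the 5 comparisons, and the number with an unadjusted p under 0.05 was 14 of 20 in WT over SE under DOX and 0 in the others. That is near the 60.4% of all rows with such a p under DOX. Their median log2 fold change was -0.23 in SE DOX against SE vehicle, -0.02 in WT DOX against WT vehicle and 0.23 in the difference of these effects. It was 0.56 in WT over SE under DOX and 0.33 under vehicle. The medians of all rows were -0.24, -0.03, 0.21, 0.53 and 0.32 in the same order. In SE DOX against SE vehicle the smallest p-values of the list were those of CASP9, the initiator caspase of the apoptosome, at -0.35, APAF1, its scaffold, at -0.27, and KPNA1, a nuclear import receptor, at -0.27, all uncalled.

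By level, the list ran from abundant histone chaperones to genes at the foot of the table. NPM1, a nucleolar histone chaperone, averaged 1671 ± 230 FPKM (unnormalized, SD, n = 8), and PTMA stood at 2.34 times that. SET and ANP32B, acidic histone-binding proteins, averaged 498 ± 45.1 and 302 ± 24.1. MYC, the transcription factor that acts on PTMA, averaged 240 ± 14.3, and KEAP1 averaged 38.7 ± 1.70. Of the linker histones, H1FX stood at 55.2 ± 8.74, HIST1H1C at 3.79 ± 1.04 and HIST1H1E at 0.446 ± 0.267. HIST1H1C and HIST1H1E are replication-dependent histone genes, whose mRNAs mostly lack a poly(A) tail. LGMN, the protease that trims thymosin alpha 1 from prothymosin alpha, was between 0 and 0.0173 FPKM in all libraries.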

How the data were processed

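Poly(A) RNA of 8 NALM6 libraries was sequenced after TruSeq v2 preparation, per the labels' protocols. The authors deposited 2 tables of FPKM per gene name, unnormalized and normalized, with 23713 rows, 92 of them spike-ins. HISAT, Cufflinks 2.0.0 and hg19 are named, per the submitters' processing notes; the sources used here do not say how values were normalized or shared reads divided. Columns were assigned to samples by name. Treatment was taken from the treatment labels, and construct and replicate letter from the sample descriptions. Rows with near-identical copies or overlapping genes are uncertain in such tables.

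Log2(normalized FPKM + 0.1) was fitted with limma 3.58.1 in R 4.3.3 (4 group means, intensity trend, spike-ins and rows with a mean under 1 left out), with adjustment over all 11465 rows. A check on simulated data drew each library independently, so it does not cover differences that libraries of a letter share. Fold changes on this scale understate low rows. Ratios and shares used unnormalized values and exact permutation. Hairpins came from RefSeq (GRCh38.p14), and transcripts and lengths from GENCODE release 29 (longest protein-coding transcript; hairpin length for microRNAs), matched by symbol for 22260 of 23621 rows. Alternatives were the other table, equal library medians, a pseudocount of 1, no minimum, no small RNA rows, only the groups compared, a replicate block and each library left out. Genes named are the 5 rows and the 3 rows most like PTMA and MIR1244-3 each. Of the partners and regulators, the 3 of smallest p in SE DOX against SE vehicle are named. Other named rows were chosen after their values were seen. The rows and gene lists were chosen with earlier results of these data known.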

Additional observations from a re-analysis of the deposited data

How the results depend on the processing

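No call of PTMA, MIR1244-2 or MIR1244-3 changed under the alternatives run, except that PTMA was called in WT over SE under DOX without SE DOX B (log2 1.03, adjusted p = 0.0259 by limma), so the number of rows called there ranged from 0 to 1 with a library left out. Of 206 alternative fold changes 182 kept direction and side, and 23 turned direction, all in the doxycycline comparisons. The cause was not tested. Fits with no minimum, no small RNA rows, only the groups compared or a replicate block return the same fold change by construction. So does leaving out a library of a group not compared. The count of 182 therefore overstates how far the fold changes were checked. With no minimum the log2 interval of MIR1244-2 in WT over SE under DOX was -77.9 to 79.5, and PTMA had -1.46 to 2.82. No MIR1244 fold change of this size could be called in that fit, so its unchanged calls are no check. The standard error of MIR1244-2 in WT DOX against WT vehicle was 0.12 with the replicate block and 0.196 in the main fit. With only these groups it was 1.12 and with no minimum 33.3, so the spread of this row depends on the fit. On the unnormalized table SE DOX against SE vehicle became 0.025 (MIR1244-2), 0.027 (MIR1244-3) and 0.0041 (PTMA), and the effect in WT minus that in SE became -0.040, -0.046 and -0.0060. With equal library medians MIR1244-2 and MIR1244-3 became 0.018 and 0.021 in SE and -0.012 and -0.018 in the difference, and MIR1244-2, MIR1244-3 and PTMA became 0.0056, 0.0027 and 0.0042 in WT. With each library left out, MIR1244-2, MIR1244-3 and PTMA ran from -0.46 to 0.026, -0.46 to 0.028 and -0.59 to 0.11 in SE, and from -0.047 to 0.44, -0.051 to 0.44 and -0.13 to 0.57 in the difference. In WT, MIR1244-2 ran from -0.11 to 0.071 and MIR1244-3 from -0.12 to 0.069.

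The log2 ratio of the MIR1244 rows to PTMA, WT minus SE, ran from 0.12 to 0.19 with each library left out. It was -0.0070 between the A libraries and -0.19 (exact p = 0.171) with MIR1244-1, at 0.01 in all libraries, in place of the sum, which by construction is the PTMA difference turned round. The MIR1244 share ran from 40.9% to 42.2% with a library left out and became 2.53% after multiplying by length. Calls over all rows, of 6, 8, 9, 12 and 21 in SE DOX, WT DOX, the difference, WT over SE under DOX and under vehicle, became 1, 0, 1, 520 and 55 without small RNA rows, and 8, 6, 10, 19 and 30 with no minimum. MIR1244-1 and PTMS, tested only with no minimum, were not called. In fits of the groups compared alone, SE DOX against SE vehicle had 138 calls and WT over SE had 253 under DOX and 32 under vehicle, and without SE DOX B the comparison under DOX had 8286. With the letter as a replicate block calls were 1663, 181 and 227 in the doxycycline comparisons and none was PTMA or MIR1244, while letters lie within constructs and leave no such fit for WT over SE. The labels call the letters biological replicates and do not say what a letter shares. A minus B correlated at 0.739 between DOX and vehicle in SE and 0.767 in WT across rows, a hint from 2 letters per construct. With the block the interval of PTMA in WT DOX over WT vehicle narrowed to 0.79 to 1.23-fold. In SE DOX over SE vehicle the blocked interval was 0.68 to 1.06-fold for PTMA and 0.73 to 1.01-fold for MIR1244-2. The files give no counts, so what depth limits cannot be stated beyond the intervals of the fits.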
